A study of Mus musculus with 8 samples.

Results

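The 9 genes described here handle iron in the ventricle of the mouse heart: Tfrc and Slc11a2 bring iron into the cell, Fth1 and Ftl1 store it, Slc40a1 exports it, Iscu, Nfs1 and Isca1 build iron-sulfur clusters, and Fech places iron into heme. They were chosen by name, and each of the 9 symbols matched 1 of the 24341 gene rows of the deposited table. RNA of whole ventricle lysates was sequenced in 8 libraries of male mice of 12 weeks fed tamoxifen chow, taken 4 weeks after tamoxifen. All 8 carry the floxed Med13/13L alleles, so the controls differ from the other group by the Cre and not by the floxed sites. The cre_positive group (4 libraries, genotype Cre Positive) carries a Cre that, per the title of the series, removes Med13 and Med13l in cardiomyocytes, and the cre_negative group (4 libraries, genotype Cre Negative) has no Cre. The labels name neither the Cre line nor its promoter, and no group without tamoxifen or with Cre and no floxed allele is among the libraries used here.

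The heart takes up iron mostly as transferrin, which the transferrin receptor carries into endosomes. Inside the cell iron is held in ferritin shells or passed to mitochondria, where it becomes part of iron-sulfur clusters and heme, which the respiratory chain needs. Messenger RNAs of this system are known for iron-responsive elements, short hairpins bound by iron regulatory proteins: such hairpins in the 3′ UTR of Tfrc protect that mRNA from decay when iron is low, and a hairpin in the 5′ UTR of ferritin and ferroportin mRNA restrains translation.

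Because the 5 genes of uptake, storage and export are the classic carriers of this element, the GENCODE M21 transcripts (GRCm38, the same assembly as mm10) were searched on the sense strand for a run of 17 bases: a C, a stem of 5 bases, the loop CAGTGN, and 5 bases that pair with the stem. G with T was allowed as a pair in 1 of the 5 positions. The hairpins found in members are shown with the loop of 6 bases in capitals.
Tfrc, 3′ UTR, chr16:32631225-32631241, plus strand: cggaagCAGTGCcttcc
Tfrc, 3′ UTR, chr16:32631604-32631620, plus strand: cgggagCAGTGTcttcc
Tfrc, 3′ UTR, chr16:32631669-32631685, plus strand: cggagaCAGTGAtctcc
Tfrc, 3′ UTR, chr16:32631716-32631732, plus strand: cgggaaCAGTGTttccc
Fth1, 5′ UTR, chr19:9982738-9982754, plus strand: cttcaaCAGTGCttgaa
Ftl1, 5′ UTR, chr7:45459785-45459801, minus strand: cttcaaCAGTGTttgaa
Slc40a1, 5′ UTR, chr1:45925471-45925487, minus strand: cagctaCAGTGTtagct
A UTR match was found in 69 of 21877 protein-coding genes (0.315%). Slc11a2, Iscu, Nfs1, Isca1 and Fech had none, which says only that these letters, in this strict form, are not in their UTRs. The matches in Fth1 and Ftl1 share the same stem.

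Levels are in FPKM, fragment counts scaled to transcript length and library size. Changes are cre_positive minus cre_negative on log2(FPKM + 1), tested with limma over the 11688 genes whose mean reached 1 FPKM, and a gene is called at a Benjamini-Hochberg adjusted p under 0.05 over all of them. All 9 genes passed that filter. In this comparison 2307 genes were called higher and 2269 lower, in all 39.2%. Scaling each library to one FPKM sum turned these into 5494 and 1010. The median log2 change of all genes was then 0.27, against -0.01 on the deposited scale. That sum, also where scaling to one sum is named below, left out small RNAs, Rn45s and the Rpl and Rps ribosomal protein genes. Medians and counts given below for that scaling are to be read against the 0.27, 5494 and 1010 of all genes. Estimated depth ran from 4480000 to 23300000 fragments per library. The ribosomal precursor Rn45s stood at 396 to 1053 FPKM in 5 libraries and at 10.3 to 15.98 FPKM in the other 3 (cre_negative 2, cre_positive 3 and 4). Values within these sets are given beside the results. Those of the low set have cre_negative 2 as their only control and were not tested. The targeted genes fell in cre_positive libraries, Med13 by 0.50 and Med13l by 0.74 on the log2 scale (limma adjusted p = 0.00612 and 3.18e-04), a check over whole genes and not over the deleted exons. The call of Med13 was lost under scaling to one sum and in the libraries of high Rn45s alone. The labels do not say how samples relate to animals: the library names of cre_negative 1 and 2 share a stem, so each p-value measures the spread between these libraries, which may in part be technical.

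Among the 9 genes 3 were called, all lower: the transferrin receptor Tfrc was 4.30-fold lower, the iron exporter Slc40a1 2.01-fold lower and the iron-sulfur factor Isca1 1.495-fold lower in cre_positive ventricles. No member was called higher, where 19.7% of all tested genes were. The count of 3 called of 9 lies close to the 39.2% of all tested genes that were called, and 3 lower of 9 compares with 19.4% lower overall. The median log2 change of the 9 was -0.18, against -0.01 over all tested genes. Groups did not overlap for 5 of the 9 genes, each time with cre_positive below, where 38.0% of all tested genes did not overlap in either direction, 18.7% with cre_positive below and 19.3% with it above.

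**Figure D1:**
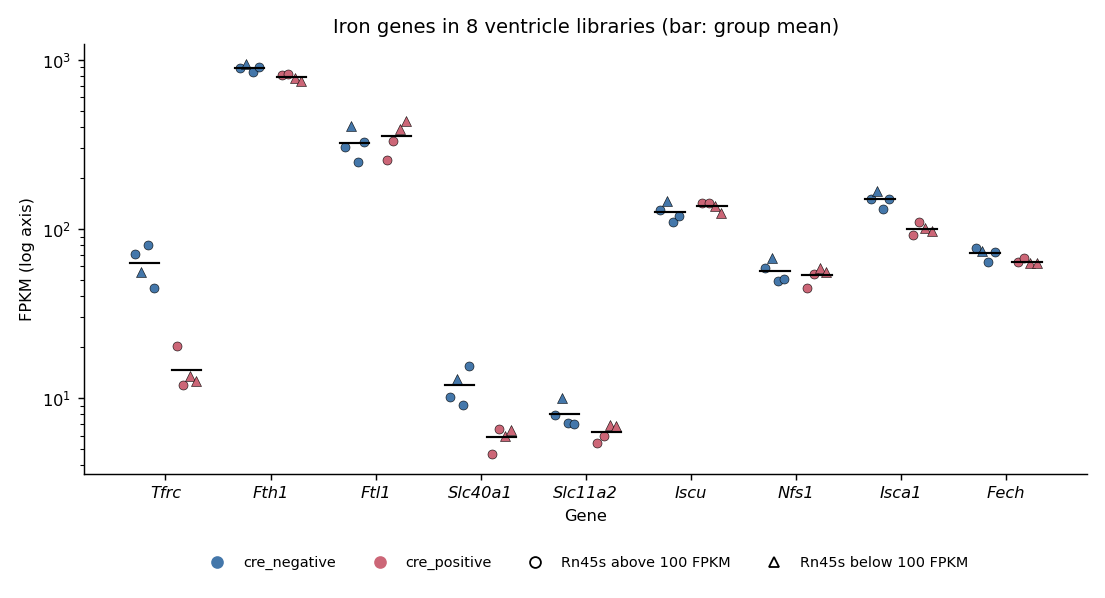
FPKM (log axis) of the 9 iron genes in each of the 4 cre_negative and 4 cre_positive libraries. Horizontal bars are group means, circles are libraries with Rn45s above 100 FPKM and triangles those below. Tfrc, Slc40a1 and Isca1 show groups set apart, while Ftl1, Iscu and Nfs1 overlap.

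Tfrc, the receptor that takes up iron-loaded transferrin (chromosome 16, 32608896 to 32632794, mm10), changed most. It stood at 70.6, 55.7, 80.0 and 44.6 FPKM in the controls, in the order cre_negative 1 to 4, against 20.3, 12.0, 13.5 and 12.5 FPKM with Cre, in the order cre_positive 1 to 4. Every control lay above every cre_positive library, of which cre_positive 1 was the highest. The mean fell from 62.8 ± 15.7 FPKM to 14.6 ± 3.88 FPKM (± SD, n = 4 in each group). On the log2 scale this was -2.03 (SE 0.20, limma adjusted p = 2.59e-05). It was -1.95 among the 5 libraries with high Rn45s and -2.02 among the 3 with low Rn45s. Under the 20 other settings tried, Tfrc was called lower each time, with log2 changes from -2.19 to -1.72. Beside this fall, 7 of 10 cardiomyocyte markers were lower and their summed level was 59442 to 63031 FPKM in cre_negative and 28499 to 29389 FPKM in cre_positive libraries. Actn2, Actc1 and Mybpc3 of that list were not called, and the part of the marker change in the result for Tfrc was not tested. In bulk RNA fewer cells of a type and less RNA per cell cannot be told apart.

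Slc11a2, the divalent metal transporter that moves iron out of endosomes (chromosome 15, 100387900 to 100423055), showed a smaller difference. Its level was 7.90, 10.02, 7.10 and 7.02 FPKM in the controls, against 5.43, 5.98, 6.89 and 6.83 FPKM with Cre. The groups did not overlap, but the highest cre_positive library lay just under the lowest control. On the log2 scale the change was -0.30 (SE 0.12, 95% interval -0.56 to -0.04), and the gene was not called (limma adjusted p = 0.0702). It was called lower with the Rn45s set as a term (log2 change -0.38, adjusted p = 0.00433) and after quantile normalization (-0.33, adjusted p = 0.0438), while scaling to one sum gave -0.02. In the high-Rn45s and low-Rn45s sets the change was -0.31 and -0.49.

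Genes of the transferrin route were split. Of the 7 tested genes of that list, Tfrc and Slc11a2 included, 3 were lower, Tfrc among them, and 1 higher. The median log2 change was -0.30, which became -0.02, with 3 lower and 2 higher, under scaling to one sum. Steap3, the endosomal reductase that prepares iron for Slc11a2, fell from 11.6 ± 0.997 to 5.88 ± 1.5 FPKM (SD, n = 4 in each group; log2 change -0.90, limma adjusted p = 6.51e-04). Hfe, which binds the transferrin receptor, fell from 26.6 ± 2.47 to 17.99 ± 0.863 FPKM (log2 change -0.54, limma adjusted p = 5.03e-04). Mcoln1, a lysosomal cation channel that can pass iron, rose from 9.52 ± 0.984 to 12.0 ± 1.56 FPKM (log2 change 0.31, limma adjusted p = 0.0419), a call lost under 9 of 20 other settings. Trf, transferrin itself, was at 18.6 ± 3.94 and 15.2 ± 1.49 FPKM and the alternative iron importer Slc39a14 at 16.01 ± 1.79 and 17.7 ± 2.19 FPKM, neither called. Tfr2, Slc39a8 and Steap2 were under the filter.

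Ferritin transcripts, by far the most abundant of the 9, differed little. Fth1, the heavy chain with ferroxidase activity (chromosome 19, 9980600 to 9985111), stood at 889, 949, 847 and 906 FPKM in the controls, against 810, 824, 779 and 745 FPKM with Cre. The groups did not overlap, and the gap between them was smaller than the spread within either group. The log2 change was -0.18 with an SE of 0.07 and a 95% interval of -0.35 to -0.02, not called after adjustment over all genes (limma adjusted p = 0.0718). Its direction depended on the scale: 0.13 under scaling to one sum and 0.21 after quantile normalization, the latter called higher (adjusted p = 0.0298). It was called lower with array weights (-0.20, adjusted p = 0.0192) and without cre_negative 3 (-0.21, adjusted p = 0.0463). The change of Fth1 was -0.11 with high and -0.32 with low Rn45s.

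Ftl1, the light chain, which aids mineral formation in the shell (chromosome 7, 45457944 to 45459886), was at 305, 404, 247 and 327 FPKM in the controls, against 257, 330, 390 and 431 FPKM with Cre. The groups overlapped, and in each group the libraries with low Rn45s were the highest. The log2 change was 0.13 with a 95% interval of -0.27 to 0.52 (limma adjusted p = 0.603), and it was 1.66e-04 with high and 0.02 with low Rn45s. Scaling to one sum and quantile normalization each called it higher, with log2 changes of 0.45 and 0.42 (adjusted p = 0.0397 and 0.0384). Both ferritin genes have near-identical processed copies in the genome, so their levels are uncertain as far as fragments could be shared with them. None of the 5 tested genes of iron storage was called by limma on the deposited scale, and 1 of them, Fth1, had an unadjusted p under 0.05, with a list median of -0.16 that turned to 0.15 under scaling to one sum and 0.06 after quantile normalization. Ncoa4, the receptor that delivers ferritin to autophagy, was at 35.6 ± 6.79 and 36.4 ± 0.935 FPKM. Ftmt, mitochondrial ferritin, was listed at the lowest value of the table, 0.01 FPKM, in all 8 libraries.

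Slc40a1, ferroportin, the iron exporter of the cell surface (chromosome 1, 45908070 to 45925594), fell. It stood at 10.1, 12.9, 9.08 and 15.5 FPKM in the controls, against 4.65, 6.53, 5.99 and 6.45 FPKM with Cre, with a gap between the groups. The mean went from 11.9 ± 2.90 FPKM to 5.91 ± 0.869 FPKM (± SD, n = 4 in each group). On the log2 scale this was -0.88 (SE 0.16, limma adjusted p = 0.00141). It was -0.91 with high and -0.95 with low Rn45s and called lower under each of 20 other settings (-0.99 to -0.60). Macrophages are known for high ferroportin, and 9 of 13 macrophage markers were lower as well, at a median of -0.67, with 0 higher. Their summed level ran from 329 to 424 FPKM in cre_negative and from 209 to 296 FPKM in cre_positive libraries, and none was listed at 0.01 FPKM. The part of that difference in the result for Slc40a1 was not tested.

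Of 5 tested genes of export, Slc40a1 included, 2 were lower and 0 higher, at a median of 0.17, and 3 were higher under scaling to one sum. Hfe2, the table's symbol for hemojuvelin, a bone morphogenetic protein co-receptor expressed in striated muscle, fell from 113 ± 11.3 to 68.1 ± 6.70 FPKM (SD, n = 4 in each group; log2 change -0.72, limma adjusted p = 2.20e-04). Ceruloplasmin (Cp) and hephaestin (Heph), the ferroxidases that work with ferroportin, were at 50.8 ± 15.8 and 63.2 ± 8.55 FPKM and at 1.62 ± 0.301 and 1.93 ± 0.199 FPKM, neither called. Hamp, the hormone hepcidin, was under the filter. The iron regulatory protein Aco1 fell from 15.2 ± 0.979 to 12.7 ± 0.967 FPKM (log2 change -0.24, limma adjusted p = 0.0369) and Fbxl5, which marks Ireb2 for breakdown, from 22.8 ± 0.889 to 19.3 ± 1.205 FPKM (-0.23, limma adjusted p = 0.0280). Scaling to one sum turned these changes to 0.054 and 0.074, neither called. The call of Aco1 was lost, with the direction kept, under 8 more of the 20 other settings and that of Fbxl5 under 7, among them the high-Rn45s libraries alone, the replicate block and cre_negative 1 and 2 averaged. Ireb2 itself was not called, at 9.52 ± 2.31 and 8.76 ± 0.383 FPKM.

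Iscu and Nfs1, the core of cluster synthesis, were not called, while Isca1, which acts later, was lower. Iscu is the scaffold on which the cluster is built (chromosome 5, 113772812 to 113778282). It stood at 129, 147, 109 and 118 FPKM in the controls, against 142, 142, 137 and 124 FPKM with Cre, with overlap. The log2 change of Iscu was 0.12 with a 95% interval of -0.10 to 0.34 (limma adjusted p = 0.365). It was 0.26 with high and -0.17 with low Rn45s, and it was called higher under scaling to one sum (0.44, adjusted p = 0.00114).

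Nfs1 is the cysteine desulfurase that supplies the sulfur (chromosome 2, 156123637 to 156145794). Its values were 58.7, 66.9, 49.4 and 50.9 FPKM in the controls, against 44.8, 54.2, 58.5 and 55.9 FPKM with Cre, with overlap. The log2 change was -0.08 with a 95% interval of -0.33 to 0.18 (limma adjusted p = 0.634), and scaling to one sum turned it to 0.24, not called (adjusted p = 0.0690). It was -0.10 with high and -0.22 with low Rn45s.

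Isca1, a factor needed to make and insert the larger clusters of mitochondrial enzymes (chromosome 13, 59755415 to 59769789), stood at 150.02, 167, 132 and 149.7 FPKM in the controls, against 91.7, 109.7, 101 and 97.6 FPKM with Cre. Every cre_positive library was below every control. The mean fell from 149.6 ± 14.3 FPKM to 100.01 ± 7.53 FPKM (± SD, n = 4 in each group). On the log2 scale this was -0.57 (SE 0.09, limma adjusted p = 5.84e-04). The change was -0.51 with high and -0.74 with low Rn45s. All 20 other settings called it lower, and the smallest change, -0.26, came with scaling to one sum.

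Among the 12 tested genes of core cluster synthesis, 4 were lower and 0 higher, at a median of -0.17 that became 0.14 with 3 genes called higher and 4 lower under scaling to one sum. Hspa9, the mitochondrial chaperone that helps hand clusters on, fell from 448 ± 24.5 to 265 ± 21.3 FPKM (SD, n = 4 in each group; log2 change -0.76, limma adjusted p = 5.01e-05). The ferredoxin Fdx1, an electron donor, fell from 41.0 ± 5.53 to 26.0 ± 2.69 FPKM (-0.64). The cluster carrier Glrx5 fell from 63.6 ± 7.07 to 42.9 ± 2.80 FPKM (-0.55). The other ferredoxin of the list, Fdx1l (older symbol of Fdx2), went the other way, from 34.1 ± 4.53 to 41.9 ± 4.66 FPKM. It was not called (log2 change 0.29, limma adjusted p = 0.0604). Hspa9, Fdx1 and Glrx5 were called lower under each of 20 other settings. Lyrm4, the partner protein of Nfs1, was not called (log2 change 0.16, limma adjusted p = 0.527).

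Of the 7 genes of later insertion, Isca1 included, 3 were lower and 0 higher, at a median of -0.34, and under scaling to one sum 1 was lower and 1 higher at a median of -0.05. Bola3, a cluster carrier, fell from 321 ± 22.8 to 214 ± 37.8 FPKM (SD, n = 4 in each group; log2 change -0.60, limma adjusted p = 0.00315), and Isca2, the partner of Isca1, from 51.5 ± 5.96 to 41.0 ± 4.62 FPKM (-0.32, limma adjusted p = 0.0344). The call of Bola3 was lost under scaling to one sum and that of Isca2 under 11 of 20 other settings. Of 9 genes of cluster assembly in the cytosol 2 were higher and 1 lower, at a median of -0.03. Nubp1 and Nubp2, the scaffold pair of that pathway, rose from 3.79 ± 1.01 to 6.47 ± 1.204 FPKM and from 9.58 ± 2.17 to 14.01 ± 1.25 FPKM (log2 changes 0.65 and 0.52, limma adjusted p = 0.0108 for each). Both calls were lost without the filter on low values, and that of Nubp1 also in the libraries of high Rn45s alone. Fam96a, a targeting factor, was the lower one (-0.26, limma adjusted p = 0.0497), a call lost under 15 of 20 other settings and turned to 0.049 under scaling to one sum.

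Enzymes that receive clusters in mitochondria fell as a whole list: 10 of 10 were lower, at a median of -0.84, where 19.4% of all tested genes were lower, and all 10 were also lower under scaling to one sum, at a median of -0.52. Markers of cell types moved beside them. The summed cardiomyocyte markers, given above with Tfrc, had a list median of -1.52. Of 8 fibroblast markers 5 were higher and 1 lower, with sums of 569 to 659 FPKM in cre_negative and 809 to 955 FPKM in cre_positive libraries. Of 6 endothelial markers 3 were lower and 0 higher, with sums of 321 to 367 FPKM and 252 to 302 FPKM. Their part in the fall of the list was not tested. Etfdh, which feeds electrons from fatty acid oxidation to ubiquinone, fell from 532 ± 44.8 to 198 ± 14.1 FPKM (SD, n = 4 in each group; log2 change -1.42, limma adjusted p = 1.93e-06). Ndufs7 and Ndufs1 of complex I changed by -1.12 and -0.95, and Sdhb, the iron-sulfur subunit of complex II, by -0.96. Of 9 cluster enzymes of the cytosol and nucleus 1 was lower and 0 higher, at a median of -0.12 that became 0.18 under scaling to one sum. That gene was Ppat, the first enzyme of purine synthesis, which fell from 12.4 ± 2.25 to 7.42 ± 0.749 FPKM (-0.66, limma adjusted p = 0.00250). Abce1, a ribosome recycling factor, and Xdh, xanthine dehydrogenase, were not called, with log2 changes of -0.11 and -0.13.

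Fech, ferrochelatase, the last enzyme of heme synthesis, was at 76.6, 74.0, 63.7 and 73.4 FPKM in the controls, against 63.3, 67.4, 62.5 and 62.9 FPKM with Cre. The groups overlapped because cre_negative 3 lay below cre_positive 2. The log2 change was -0.16 with a 95% interval of -0.33 to 0.01 (limma adjusted p = 0.122). It was called lower without cre_negative 3 (-0.22, adjusted p = 0.0239) and with array weights (-0.21, adjusted p = 0.0143), and scaling to one sum gave 0.15. With high Rn45s the change of Fech was -0.12 and with low Rn45s -0.24.

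The first enzyme of the same pathway changed far more. Alas1, the rate-limiting synthase of heme in most cells, stood at 148, 165, 146 and 136 FPKM in the controls, against 62.6, 49.9, 53.8 and 51.6 FPKM with Cre, with no overlap. It fell from 149 ± 12.1 FPKM to 54.5 ± 5.65 FPKM (SD, n = 4 in each group), 2.73-fold, with a log2 change of -1.43 (limma adjusted p = 2.35e-06). Of 9 heme synthesis genes 4 were lower and 0 higher, at a median of -0.34, which under scaling to one sum became 2 lower and 1 higher at -0.04. Alad and Cpox, enzymes between Alas1 and Fech, were among them, with log2 changes of -0.97 and -0.36 (limma adjusted p = 0.0122 and 0.00306). The call of Alad was lost without the filter on low values and that of Cpox under scaling to one sum. The erythroid form Alas2 was at 17.96 ± 6.49 and 14.03 ± 2.58 FPKM and was not called. None of the 5 tested erythroid markers was called by limma, with 0 at an unadjusted p under 0.05. The sum of all 8 ran from 944 to 2803 FPKM in cre_negative and from 1183 to 1589 FPKM in cre_positive libraries, with Hba-a2 near 0 in each, as globin paralogs can share reads.

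Of 4 heme transport genes 3 were lower and 0 higher (1 higher under scaling to one sum). The mitochondrial transporter Abcb6 fell from 12.3 ± 1.80 to 5.24 ± 1.10 FPKM (SD, n = 4 in each group; log2 change -1.10), Abcb10 from 14.6 ± 2.05 to 8.91 ± 1.52 FPKM (-0.66) and Tmem14c, a porphyrin carrier, from 107 ± 5.92 to 68.3 ± 3.81 FPKM (-0.64), each with a limma adjusted p of 0.00285 or less. None of 4 heme breakdown genes was called by limma and 1, Blvra, had an unadjusted p under 0.05, although 2 were called higher under scaling to one sum. Hmox2 was at 49.4 ± 4.46 and 52.7 ± 3.22 FPKM and Blvra at 15.8 ± 1.37 and 18.3 ± 0.766 FPKM. The mitochondrial iron importers Slc25a28 and Slc25a37 were not called either, at -0.19 and -0.21, with 0 of 2 at an unadjusted p under 0.05 in limma. Over all 13 lists, 86 genes were tested, of which 33 were lower and 3 higher. These 36 called genes are 41.9% of the lists, near the 39.2% of all tested genes. By direction, 19.4% of all tested genes were lower and 19.7% higher. Scaling to one sum gave 26 lower and 20 higher of the 86. Of all 11688 tested genes, 1010 were lower and 5494 higher under that scaling. On the deposited scale, leaving out the 9 named at the start, 30 were lower and 3 higher of 77, at a median of -0.24.

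**Figure D2:**
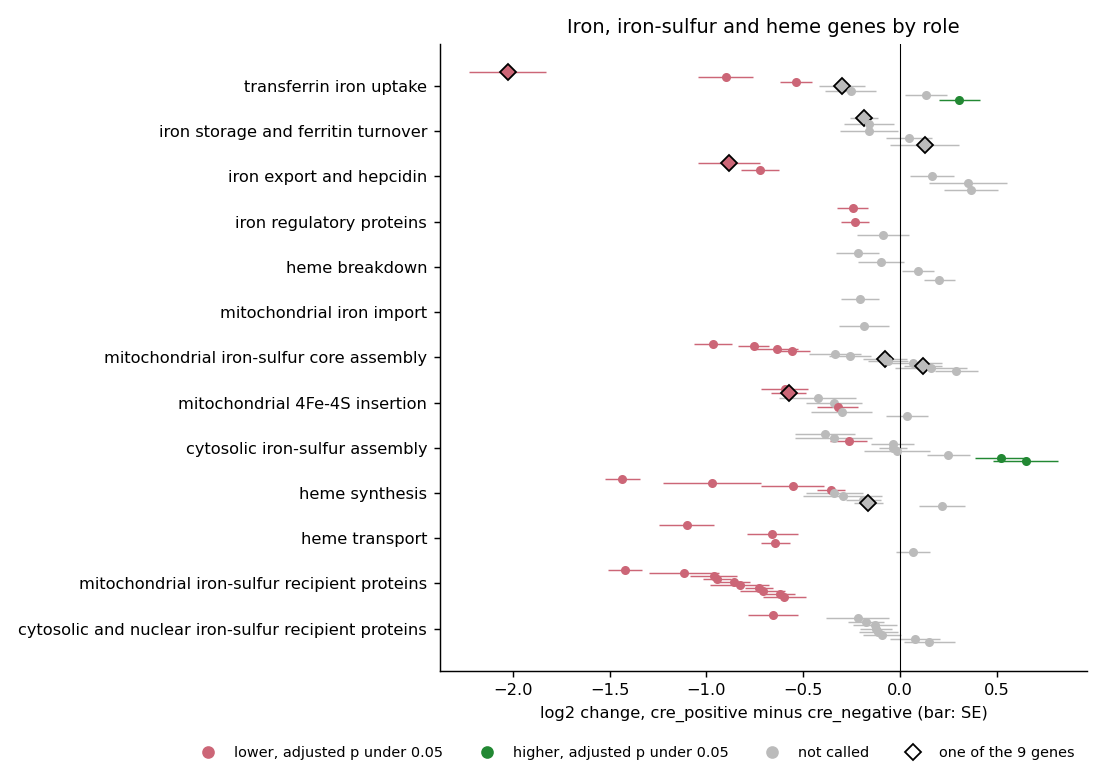
Log2 change (cre_positive minus cre_negative, with its standard error) of 86 tested genes in 13 lists of iron, iron-sulfur and heme genes. Each point is a gene, diamonds are the 9 genes described, red and green points were called lower and higher, and grey points were not called. All 10 mitochondrial iron-sulfur recipient genes lie on the lower side, while the storage genes lie near 0.

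Ratios between 2 genes of 1 library stay the same when the whole library is scaled by 1 factor, though quantile normalization can change them. Of such ratios 5 were compared, chosen after the values were seen. Tfrc over Fth1 was 0.0795, 0.0587, 0.0945 and 0.0493 in the controls, against 0.0251, 0.0146, 0.0173 and 0.0168 with Cre, so receptor transcripts were lower relative to ferritin heavy chain in each cre_positive library. Isca1 over Iscu was 1.17, 1.14, 1.21 and 1.26 in the controls, against 0.644, 0.774, 0.739 and 0.787 with Cre, so Isca1 passed from the more abundant to the less abundant of the pair. Alas1 over Fech went from 2.08 ± 0.220 to 0.852 ± 0.104 (SD, n = 4 in each group). Those 3 did not overlap between the groups, and for each the exact two-sided permutation p was 0.0286, the smallest that 70 assignments allow, or 0.0476 adjusted over the 5 ratios. Fth1 over Ftl1 was 2.87 ± 0.445 and 2.34 ± 0.628 (exact permutation p = 0.200, adjusted 0.200), and Tfrc over Slc40a1 was 5.75 ± 2.66 and 2.60 ± 1.19 (exact permutation p = 0.0857, adjusted 0.107), each with overlapping groups. Since the ratios were picked with their values known, these p-values are no independent evidence.

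**Figure D3:**
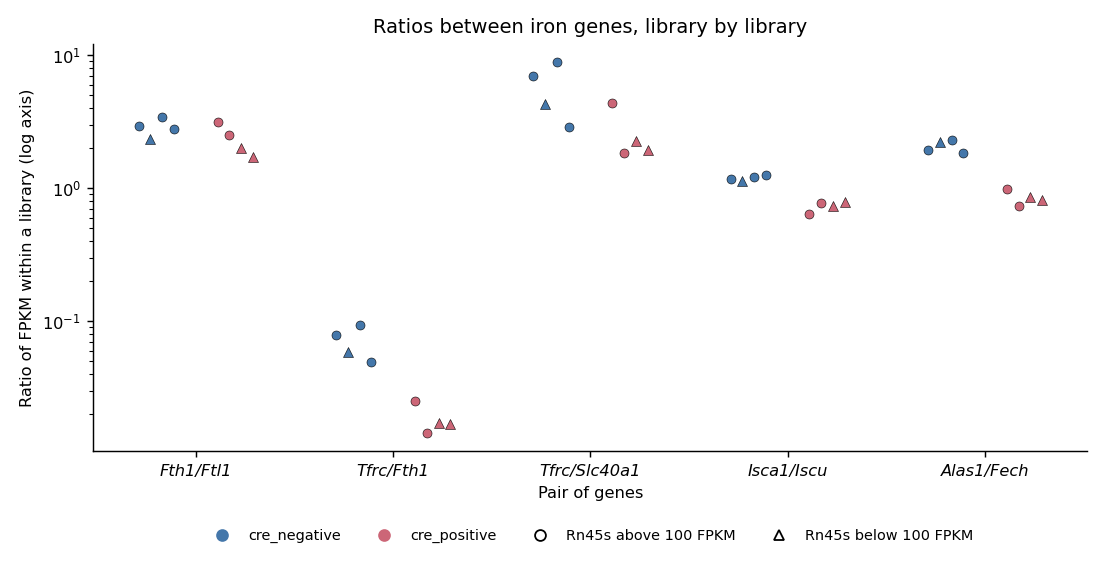
Ratio of FPKM (log axis) between 2 genes of the same library, for 5 pairs of genes, with 1 point per library in the 4 cre_negative and 4 cre_positive libraries. Circles are libraries with Rn45s above 100 FPKM and triangles those below. Tfrc/Fth1, Isca1/Iscu and Alas1/Fech do not overlap between the groups.

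The hairpin genes can be read side by side. Tfrc, with 4 matches in the 3′ UTR, had a log2 change of -2.03, and among genes of these lists with a match in the 5′ UTR the values were -0.18 (Fth1), 0.13 (Ftl1), -0.88 (Slc40a1) and -0.30 (Alas2, not called). Bola3 also held a match in the 3′ UTR. Of the 43 tested genes with a UTR match in the whole annotation, 6 were higher and 5 lower, or 25.6%, against 39.2% of all tested genes.

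By level, the order in cre_negative libraries was Fth1, Ftl1, Isca1, Iscu, Fech, Tfrc, Nfs1, Slc40a1 and Slc11a2. The spread of Tfrc took in the means of Fech and Nfs1, and the ranges of mean ± SD overlapped for Isca1 and Iscu at 149.6 ± 14.3 and 126 ± 16.1 FPKM. In cre_positive libraries Tfrc, at 14.6 ± 3.88 FPKM, stood below Nfs1 at 53.4 ± 5.96 and Fech at 64.0 ± 2.28 FPKM, and Iscu at 136 ± 8.48 FPKM stood above Isca1 (SD, n = 4 in each group). FPKM is per transcript length, which allows these levels to be set side by side.

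For the 3 genes that changed most, the closest patterns over the 8 libraries were sought as the smallest root mean square distance of log2(FPKM + 1) after subtracting the control mean. Closest to Tfrc were Rbfox1 (distance 0.28), Rhobtb1 (0.31) and Gpr22 (0.33), with log2 changes of -1.79, -1.77 and -2.22. Closest to Slc40a1 were Plbd1, Dnaaf3 and Ahrr (distances 0.11, 0.12 and 0.13), and to Isca1 0610012G03Rik, Guf1 and Oma1 (0.049, 0.052 and 0.053). Dnaaf3 and Ahrr were low, at means of 2.34 and 2.03 FPKM in cre_negative and 0.66 and 0.63 FPKM in cre_positive libraries. At such levels the 1 added before the log shrinks a change, and its part in their distances was not tested. These distances are a description over 8 libraries that share the same group difference.

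**Figure D4:**
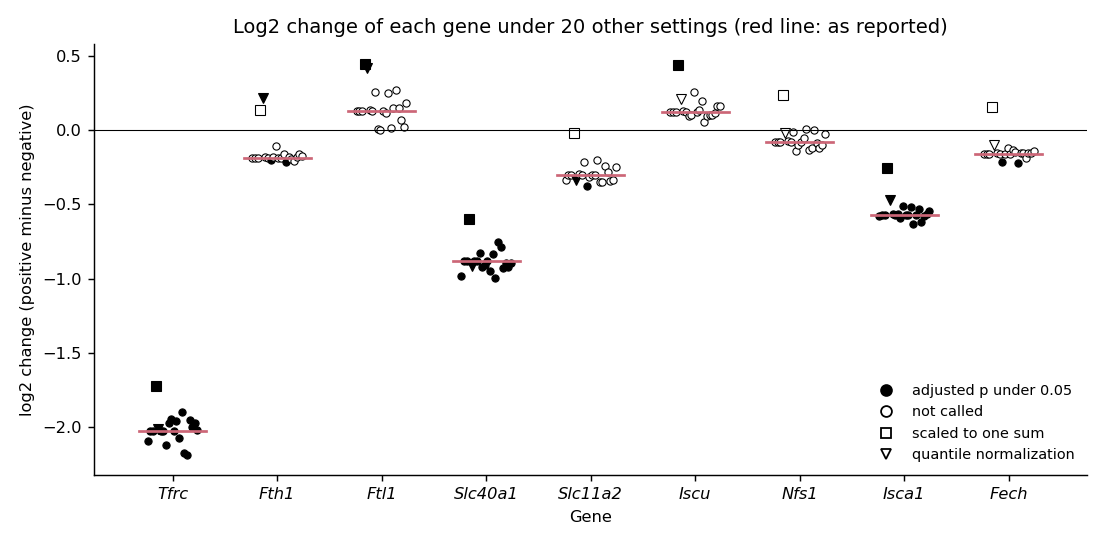
Log2 change (cre_positive minus cre_negative) of the 9 genes as reported (red line) and under 20 other settings (filled where called at an adjusted p under 0.05, open where not), with squares for scaling to one sum and down-pointing triangles for quantile normalization. Tfrc, Slc40a1 and Isca1 are below 0 and filled throughout, and Fth1, Nfs1 and Fech lie on both sides of 0.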

How the data were processed

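RNA of 8 ventricle lysates was measured as stranded total RNA libraries after removal of ribosomal RNA, per the labels' protocols. The authors deposited 1 FPKM value per gene and library. Bowtie2 2.2.6, Cufflinks and mm10 are listed in the submitters' processing notes. Annotation, strand use and any earlier filter were not given in the sources used here. Deposited FPKM go down to 0.01, and 6 cells of 3 genes hold a word and were treated as missing.

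Groups came from the titles. log2(FPKM + 1) was fitted with limma 3.58.1 in R 4.3.3 (lmFit, eBayes with trend) for genes whose mean reached 1 FPKM. The fit and the depth estimate were tested on simulated data. Depth was estimated from 3664 genes with 1 transcript of 500 to 4000 bases, where the product of FPKM and length piles up at what 1 fragment gives. A transcript of 2 kb at the lowest member value, 4.65 FPKM of Slc40a1 in cre_positive 1, then rests on 41.7 fragments, and a count of 0 allows up to 3 fragments, 0.0644 to 0.335 FPKM. These limits cover counting error only. GENCODE M21 gave the transcripts.

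The members and lists were chosen with earlier results of these data known. The text names the 9 members, the targeted genes and up to 4 called genes of each list with the largest change. Where fewer than 2 were called, it names the 2 most abundant. Trf, Slc39a14, Ncoa4, Ftmt, Cp, Heph, Ireb2, Lyrm4, Fdx1l and Alas2 were added after their values were seen. Some genes that the rule names are not reported here. Fdx2, Ciao2a, Ciao2b, Ciao3 and Hjv were matched by the older symbols on the lists, and Flvcr1 and Flvcr2 were not analysed here. Other settings were pseudocount, filter, scaling, variance model, weights, the Rn45s set, a replicate block and leaving out each library, plus averaging cre_negative 1 and 2, which was added after seeing the data.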

Additional observations from a re-analysis of the deposited data

Results flagged for a closer look

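In 5 of the 108 groups of 4 libraries examined, 1 library lay far from the others by Dixon's criterion for a gap, where chance gives about 1 in 20. Fech was at 67.4 FPKM in cre_positive 2, against 63.3 FPKM in the nearest library. Fam96a was at 52.8 FPKM in cre_negative 1, against 41.7 FPKM. Med13l was at 6.13 FPKM in cre_negative 3, against 4.62 FPKM. The ratio of Tfrc to Slc40a1 was 4.37 in cre_positive 1, against 2.25. The summed erythroid markers were at 1589 FPKM in cre_positive 1, against 1242 FPKM.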

How the results depend on the processing

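Tfrc, Slc40a1 and Isca1 were called lower under each of the 20 other settings, and 20 of the 32 called genes the rule names, these included, kept their call in each tested setting. Members called numbered 3 as reported, 5 under scaling to one sum and with array weights, 6 after quantile normalization, and 3 to 5 when each library was left out (5 without cre_negative 3). Of all 11688 tested genes, 2307 were higher and 2269 lower as reported, and 2945 and 2817 with array weights. After quantile normalization 2342 were higher and 2262 lower, and without cre_negative 3 these counts were 2335 and 2317. Scaling to one sum gave 5494 genes higher and 1010 lower and turned the sign of Fth1 (0.13), Nfs1 (0.24), Fech (0.15), Aco1 (0.054), Fbxl5 (0.074), Slc25a28 (0.10), Slc25a37 (0.037), Fam96a (0.049), Abce1 (0.20) and Xdh (0.18). Quantile normalization turned Fth1 (0.21), and the high-Rn45s libraries alone turned Abce1 (0.023). Leaving out each library in turn gave changes of Nfs1 that ran from -0.14 to 0.0064, against -0.08 as reported. The cause was not tested. With the sample number as a replicate block, 1963 genes were higher, 1899 lower and 3 members called. Samples of the same number did not deviate together (r = -0.09, -0.16, -0.13 and -0.08). With deviations taken within groups of so few libraries, these values cannot show whether samples were paired. Averaging cre_negative 1 and 2 called the same count of 3 members. In log2(FPKM + 1), cre_negative 1 and 2 differed by a median of 0.16, and cre_negative 1 and 4 by 0.11.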
